A study of Mus musculus with 12 samples.

Results

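Target site S1 was edited by Cas9 in muscle stem cells (MuSCs) of the mouse, which lie beside the muscle fibres and rebuild them after injury, and the indels left behind were read on single DNA molecules. The S1 material comprised 3 of the 12 samples of the series, chosen by the site named in their titles: 2 edited libraries (replicates 1 and 2) and 1 unedited library, which was not analysed here. Edited MuSCs came from mice carrying a Pax7-driven Cre and a Cre-dependent Cas9-EGFP allele (Pax7Cas9), so that Cas9 was restricted to Pax7-expressing cells and their descendants, and an AAV9 vector delivering the sgRNA had been injected into muscle of these mice at an early postnatal age, when the cells were still proliferating myoblasts. MuSCs were sorted weeks later, so molecules with the same indel may descend from 1 edited cell and need not be separate repair events. The other 3 sites (S7, S18 and S28) had been edited in the same way with their own sgRNAs and primers. The study selected all 4 sites because they showed moderate to high frequencies of large modifications. The methods and labels name an sgRNA vector for this assay, whereas a legend names dual sgRNAs. A single cut was assumed here.

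The assay, individual DNA molecule sequencing (IDM-seq), tags each starting molecule with a unique molecular identifier (UMI) before amplification and long-read sequencing. Replicate 1 held 4306 UMI types and 435 indels, and replicate 2 held 7088 UMI types and 699 indels. S1 thus contributed 1134 of the 2623 indels of the series. The indel table listed 417 of these molecules in replicate 1 and 689 in replicate 2, with 1 indel kept per UMI. All 366 and 605 deletions and all 18 and 35 insertions under 20 bp were present. Of the large insertions (LIs, 20 bp or longer), 32 of 50 in replicate 1 and 49 of 59 in replicate 2 were listed, and the other 28 molecules were not analysed here. Deletions of 50 bp or longer were large deletions (LDs), 158 in replicate 1 and 233 in replicate 2. Percentages with 95% Wilson intervals cover counting error only, and p-values between the replicates compare 2 libraries, which the titles distinguish by number alone.

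A double-strand break made by Cas9 is usually sealed by non-homologous end joining, which trims or adds few bases, or by microhomology-mediated end joining, in which short identical tracts on either side of the break anneal and the stretch between them is lost. Cas9 typically cuts 3 bp from the PAM, the short motif beside the protospacer that it needs for binding. Where the ends are staggered by a base, filling in copies the base next to the cut and gives a 1-bp duplication.

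The deleted sequences in the table place S1 on the plus strand of chromosome 14 of the GRCm38 mouse assembly. Of 978 deleted sequences given, 954 equalled the reference at the listed position, 22 differed in length from the listed deletion and 2 differed in sequence. The cut lay between 21092400 and 21092401, within exon 2 of Adk (chr14:21092367-21092441), a coding exon of 75 bp that left 34 bp on one side of the cut and 41 bp on the other. Adk encodes adenosine kinase, which phosphorylates adenosine to AMP. The genes that the study names as targets of its single sgRNAs do not include Adk, so the intended class of this target is unclear. The guide sequence was not given in the sources used here, and the only NGG PAM placed to cut at this position lies on the minus strand. The side to the left of the cut in the gene's orientation is therefore called the PAM side, and the side to the right the PAM-distal side. Positions are counted from the cut, with 0 as the last base on the PAM side and 1 as the first base beyond it. The unedited sequence is shown with PAM and inferred protospacer in capitals, followed by the protospacer on its own strand with the PAM in capitals and by the most frequent deletions with the lost bases in capitals, since these alleles are described one by one among the results. All but the protospacer and the 75-bp deletion span chr14:21092361-21092440.
Unedited S1: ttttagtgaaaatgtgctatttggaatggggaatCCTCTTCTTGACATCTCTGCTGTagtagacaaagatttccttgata
Inferred protospacer and PAM, minus strand: acagcagagatgtcaagaagAGG
3-bp deletion, -3 to -1: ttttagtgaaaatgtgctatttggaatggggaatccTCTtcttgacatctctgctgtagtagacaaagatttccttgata
2-bp deletion, -1 to 0: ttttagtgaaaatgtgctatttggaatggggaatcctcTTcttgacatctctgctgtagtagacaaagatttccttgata
5-bp deletion, -4 to 0: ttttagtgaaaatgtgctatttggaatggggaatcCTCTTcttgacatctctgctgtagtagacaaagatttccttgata
14-bp deletion, -7 to 6: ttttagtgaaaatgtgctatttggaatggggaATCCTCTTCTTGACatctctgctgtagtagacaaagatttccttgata
2-bp deletion, 0 to 1: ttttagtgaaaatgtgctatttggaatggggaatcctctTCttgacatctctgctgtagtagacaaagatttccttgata
55-bp deletion, -20 to 34: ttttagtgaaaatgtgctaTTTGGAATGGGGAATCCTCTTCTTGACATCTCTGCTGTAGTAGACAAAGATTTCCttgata
50-bp deletion, -21 to 28: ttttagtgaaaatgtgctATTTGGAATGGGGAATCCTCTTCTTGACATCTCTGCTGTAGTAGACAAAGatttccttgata
54-bp deletion, -19 to 34: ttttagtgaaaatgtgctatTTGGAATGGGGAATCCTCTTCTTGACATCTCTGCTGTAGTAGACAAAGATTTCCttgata
69-bp deletion, -33 to 35: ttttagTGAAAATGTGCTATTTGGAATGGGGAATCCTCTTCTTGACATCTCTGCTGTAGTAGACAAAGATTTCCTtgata
75-bp deletion, -45 to 29, in chr14:21092345-21092439: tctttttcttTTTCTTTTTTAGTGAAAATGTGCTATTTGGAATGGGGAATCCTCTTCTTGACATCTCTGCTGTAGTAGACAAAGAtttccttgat

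Deletions at S1 ranged from 1 bp to over a kilobase, and both replicates showed a peak at a few base pairs and a broad tail. The median deletion was 36 bp in replicate 1 and 32 bp in replicate 2. Single-base deletions had 20 and 14 molecules, and 2-bp deletions 21 and 56. The most frequent single size was 3 bp, with 39 molecules (10.7% of deletions, interval 7.89% to 14.2%) in replicate 1 and 78 molecules (12.9%, 10.5% to 15.8%) in replicate 2. Deletions of 100 bp to under 500 bp formed the fullest size class, with 84 molecules (22.95%, 18.9% to 27.5%) and 118 molecules (19.5%, 16.5% to 22.8%). The classes differ widely in width, some holding a single size, so this rank depends on how they were drawn. Deletions of 500 bp or longer numbered 40 (10.9%, 8.13% to 14.5%) and 41 (6.78%, 5.03% to 9.06%), and 4 and 6 of these reached 1000 bp. The longest removed 1255 bp in replicate 1 (-249 to 1005) and 1587 bp in replicate 2 (-798 to 788), each on a single molecule and each taking exon 2 whole.

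**Figure D1:**
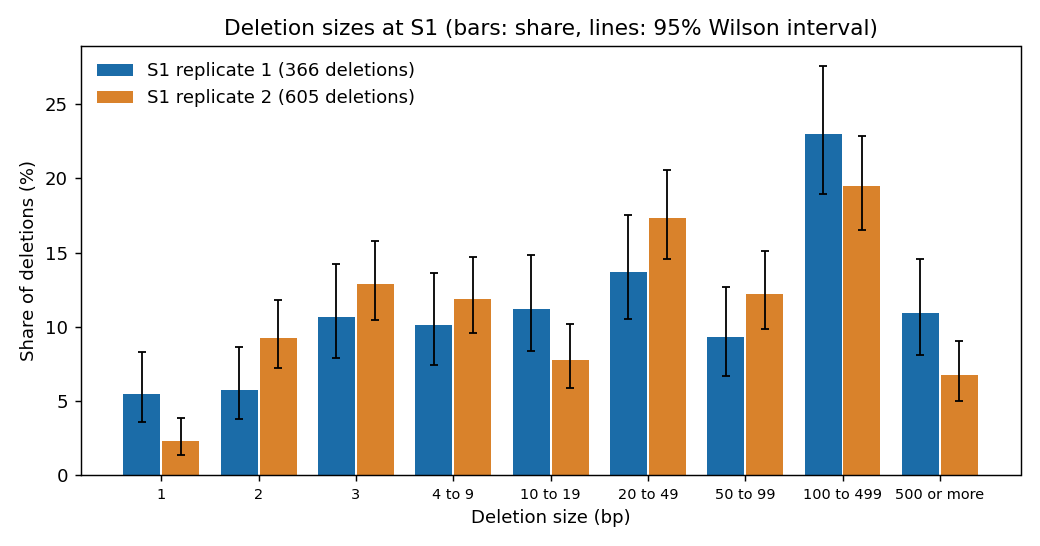
Share of deletions (%, vertical axis) in each size class (bp, horizontal axis) for S1 replicate 1 (366 deletions) and replicate 2 (605 deletions); lines are 95% Wilson intervals. Classes differ in width, and the wide class of 100 bp to under 500 bp was the fullest in both, at 22.95% and 19.5%.

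Although deletions under 50 bp were the majority of molecules, they carried little of the lost DNA. In replicate 1 the 208 deletions under 50 bp (56.8% of deletions) accounted for 4.72% of all deleted bases, and in replicate 2 the 372 deletions under 50 bp (61.5%) for 7.11%. The deletions of 500 bp or longer removed 52.9% and 44.5% of all deleted bases. LDs had a median of 239 bp in replicate 1 and 188 bp in replicate 2, with quartiles of 104.8 bp and 509.8 bp against 75 bp and 406 bp.

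The size profiles of the replicates could not be separated after adjustment. Across 11 classes (9 of deletions and 2 of insertions under 20 bp), Fisher's exact test (two-sided, Benjamini-Hochberg over the classes) called 0, with 2 below an unadjusted p of 0.05. These were 1-bp deletions, at 4.80% of listed indels in replicate 1 and 2.03% in replicate 2 (Fisher's exact test, p = 0.0118, adjusted p = 0.130), and deletions of 500 bp or longer, at 9.59% and 5.95% (p = 0.0315, adjusted p = 0.173). A mid-p version of Fisher's exact test also called 0 (smallest adjusted p = 0.0986). LI sizes were not tested because LIs were listed in part.

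Only indels overlapping the 30 bp on either side of the cut had been kept, so closeness to it was partly set in advance. The same filter bears on how often deletions and LDs spanned the cut and on where LIs lay. Within this limit, the deletions centred on the cut. With deletions placed as listed, the base at -1 was removed in 89.6% of deletions in replicate 1 and 90.1% in replicate 2. The share fell off on both sides and was 80.1% and 80.3% at 0. Nearly all deletions were listed at the leftmost of their equivalent positions, and the place of the peak depends on that choice. The most frequent deletion, a 3-bp allele, can be written on either side of the cut. At 10 bp from the cut the base was lost in 53.0% and 50.4% of deletions on the PAM side (position -10) and in 49.2% and 49.8% on the PAM-distal side (position 10). At 100 bp it was lost in 17.5% and 12.7% on the PAM side and in 17.8% and 15.04% on the PAM-distal side, and at 500 bp in 4.10% and 2.48% against 6.28% and 3.31%. The farthest deletions reached 760 bp and 799 bp on the PAM side and 1041 bp and 1053 bp on the PAM-distal side. Molecules that had lost a primer site could not be amplified, which bounds what could be seen.

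**Figure D2:**
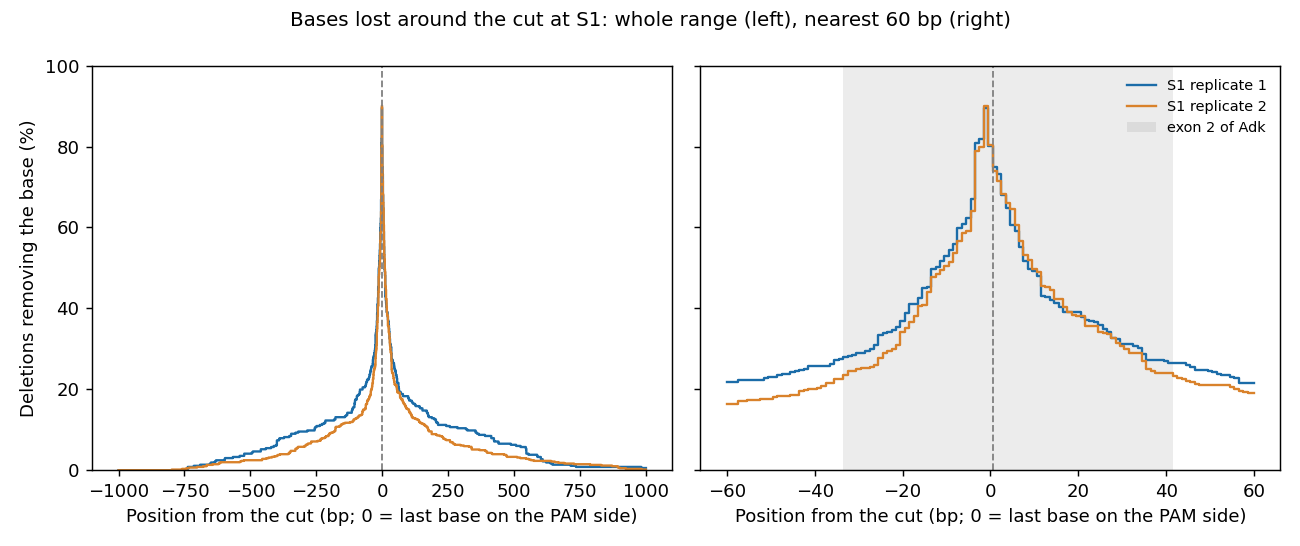
Percentage of deletions that removed each base (vertical axis) against its position from the cut (bp, horizontal axis; dashed line, cut; grey, exon 2 of Adk) in S1 replicates 1 and 2. With deletions placed as listed, mostly leftmost, the share was highest at -1, at 89.6% and 90.1%, and was 17.5% and 12.7% at -100.

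As listed, 259 of 366 deletions in replicate 1 (70.8%, 65.9% to 75.2%) and 424 of 605 in replicate 2 (70.1%, 66.3% to 73.6%) spanned the cut, with 77 (21.0%) and 144 (23.8%) wholly on the PAM side and 30 (8.20%) and 37 (6.12%) wholly on the PAM-distal side. The replicates did not differ detectably in any of these 3 classes (Fisher's exact test, adjusted p = 0.516 for both one-sided classes and 0.828 for spanning). The side depends on how a deletion within repeated bases is written. The table lists nearly all of them at the leftmost of their equivalent positions, with 5 and 9 exceptions. Of the deletions listed on the PAM side, 34 and 74 were the single 3-bp allele, and 75 of 77 and 142 of 144 touched the cut in some equivalent position. When any equivalent position was allowed, 82.2% (78.0% to 85.8%) and 85.8% (82.8% to 88.3%) of deletions could be written as spanning the cut. In all, 17 and 15 deletions did not touch the cut in any position.

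LDs nearly always spanned the cut, in 153 of 158 molecules (96.8%, 92.8% to 98.6%) in replicate 1 and 232 of 233 (99.6%, 97.6% to 99.9%) in replicate 2 (adjusted p = 0.0979 over the 3 classes, Fisher's exact test). They reached further on the PAM-distal side in 89 and 141 molecules and further on the PAM side in 67 and 91. The median reach was 61 bp and 44 bp on the PAM side and 58.5 bp and 58 bp on the PAM-distal side. At least 50 bp on both sides was removed by 35 of 158 and 60 of 233 LDs, which the 34 and 74 LDs under 100 bp could not do.

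**Figure D3:**
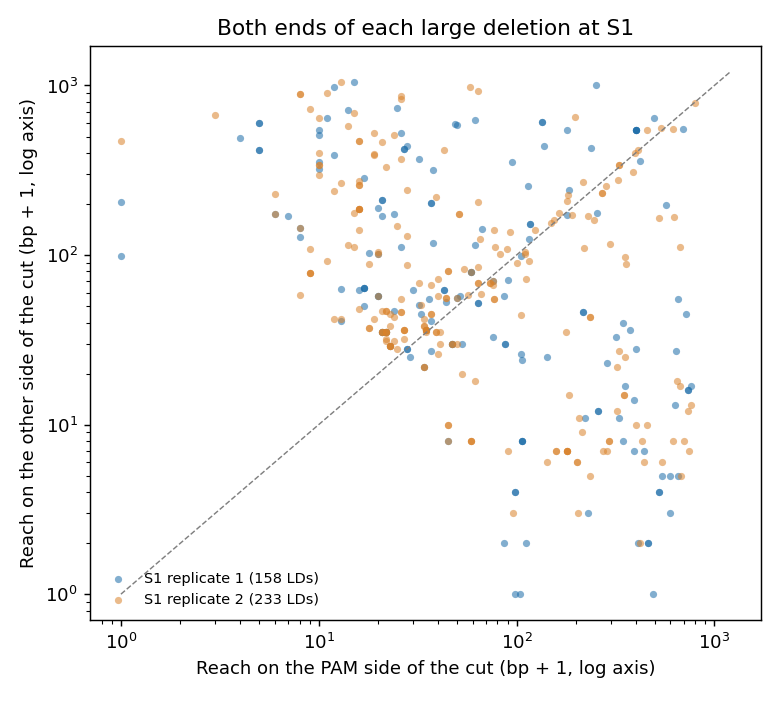
Reach of each LD on the PAM side (horizontal axis, bp + 1, log scale) and on the PAM-distal side (vertical axis, bp + 1, log scale) of the cut; each point is 1 molecule and the dashed line marks equal reach. Of the LDs, 35 of 158 (replicate 1) and 60 of 233 (replicate 2) removed 50 bp or more on both sides.

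Several LD types shared an end. The right end at 34 was shared by 4 and 12 molecules of 6 LD types, among them the 55-bp and 54-bp deletions, the one at 7 by 5 and 9 molecules of 8 types, and the one at 6 by 2 and 10 molecules of 8 types. Among left ends, -14 was used by 1 and 11 molecules of 7 types, -20 by 2 and 9 molecules of 5 types and -19 by 5 and 5 molecules of 5 types. These ends were singled out after their counts had been seen and were not tested.

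Set against the exon, 217 of 366 deletions in replicate 1 and 402 of 605 in replicate 2 stayed inside exon 2. Of these, 72 (33.2%, 27.3% to 39.7%) and 136 (33.8%, 29.4% to 38.6%) had a length that was a multiple of 3. Without the 3-bp allele the share was 38 of 183 (20.8%) and 62 of 328 (18.9%). The left edge of the exon with its splice acceptor side was removed in 52 (14.2%) and 62 (10.2%) deletions, the right edge with its donor side in 48 (13.1%) and 66 (10.9%), and the whole exon in 49 (13.4%) and 75 (12.4%). None of the 5 outcomes differed between replicates (smallest adjusted p = 0.325, Fisher's exact test, 0 below an unadjusted p of 0.05). No deletion, and no insertion under 20 bp, left the protospacer and PAM intact. Transcripts and protein were not measured.

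A 3-bp and a 2-bp deletion led in both replicates. The 3-bp deletion from -3 to -1 was carried by 34 molecules in replicate 1 (8.15% of listed indels, 5.89% to 11.2%) and 74 in replicate 2 (10.7%, 8.64% to 13.3%). The cut lies inside a tandem repeat (TCTTCTT), so that every 3-bp deletion that touches the cut gives this 1 product, and its length keeps the reading frame. The 2-bp deletion from -1 to 0 followed, with 15 (3.60%) and 39 (5.66%) molecules, and has no microhomology. The 5-bp deletion from -4 to 0, with 6 and 18 molecules, lies between copies of CT, and the 14-bp deletion from -7 to 6, with 10 and 10 molecules, between copies of ATC. The other 2-bp deletion, from 0 to 1, had 4 and 14 molecules. These 5 were ranked over both replicates together, and replicate 2 weighs more in that order. In replicate 1 a 13-bp deletion beginning at -4 and a 1-bp deletion at 1 had 8 molecules each, and a 37-bp deletion beginning at -25 had 7. All were picked after their values were seen and stood above the 5-bp and the other 2-bp deletion. Further deletions of replicate 1 stood above the other 2-bp deletion alone.

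Of the 5 most frequent LDs, 3 lay close together. The 55-bp deletion had 2 and 4 molecules, the 54-bp deletion 2 and 3, and the 50-bp deletion 1 and 4. The 69-bp deletion (1 and 4 molecules) begins at the first base of exon 2 and, like the 54-bp deletion, lies within the exon with a length that is a multiple of 3, whereas the 75-bp deletion (2 and 2 molecules) takes the left exon edge. Their flanking tracts were TT at 55 bp, TTG at 54 bp, ATTT at 50 bp, TGA at 69 bp and TTTC at 75 bp. The 75-bp deletion was named because it was the shortest of several LDs tied in total. The others, each in 1 replicate only, were a 946-bp deletion beginning at -399 (4 and 0 molecules), a 184-bp one at -177 and a 202-bp one at -14 (0 and 4 each). In replicate 1 the 946-bp deletion was the most frequent LD. No LD type exceeded 4 molecules in a replicate, so the order of LD types rests on single molecules.

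Of the 530 indel types listed over both replicates, 400 (75.5%) were seen on a single molecule. Replicate 1 had 237 types and replicate 2 had 346, and 53 types occurred in both, which is 22.4% of the types of replicate 1 and 15.3% of those of replicate 2. Those shared types held 46.8% and 48.5% of the molecules. The 10 most frequent types of each replicate held 25.9% and 30.9% of its molecules. At an equal draw of 400 molecules, 229.9 types were expected in replicate 1 and 227.4 in replicate 2.

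Recurrence fell with size. Among deletions of 1 to 9 bp, 18 of 24 types in replicate 1 and 18 of 30 in replicate 2 were shared and held 91.5% and 93.2% of the molecules. Among deletions of 10 to 49 bp, 17 of 43 and 17 of 77 types were shared, with 62.6% and 48.0% of the molecules. For LDs of 50 to 99 bp it was 8 of 27 and 8 of 47 types, with 35.3% and 28.4% of the molecules, and for LDs of 100 bp or longer 6 of 102 and 6 of 137 types, with 5.65% and 3.77%. In an equal draw of 150 molecules, LDs gave 123.7 and 127.4 expected types against 57.1 and 61.5 for shorter deletions. Repeats within 1 replicate were seen too. Among LDs, 20 types with 44 molecules in replicate 1 and 29 types with 65 molecules in replicate 2 had 2 or more molecules there and none in the other replicate.

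**Figure D4:**
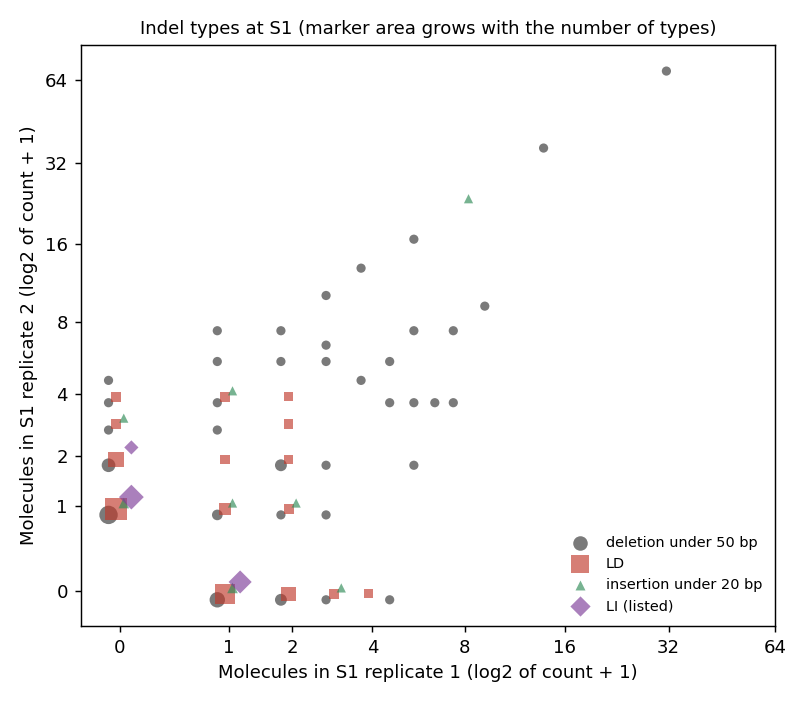
Molecules per indel type in S1 replicate 1 (horizontal axis) and replicate 2 (vertical axis), both as log2 of the count plus 1 with tick labels in molecules; symbols mark the class and their area grows with the number of types at a point. Short deletions extend to 34 and 74 molecules, while LDs stay at 4 or fewer in each replicate.

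No type was called different in share between the replicates. Of the 31 types with 5 or more molecules (25 short deletions, 4 LDs and 2 insertions), Fisher's exact test called 0 after adjustment, which is 0% of those tested, with 1 below an unadjusted p of 0.05, and its mid-p version also called 0 (smallest adjusted p = 0.116). The same 0% held for the 7, 17 and 19 types tested at S7, S18 and S28. The 1 type at S1, a 4-bp deletion beginning at -3 and named here only for this value, had 5 molecules in replicate 1 and 0 in replicate 2 (p = 0.00751, adjusted p = 0.233, Fisher's exact test). Since even this split did not pass, the lack of a call says little about types with few molecules. Of the 31 types, 29 were found in both replicates. Their shares correlated across types (r = 0.90, rho = 0.36 over 31 types; r = 0.64 over 30 without the 3-bp allele). Types of a library are not independent replicates, and the 3-bp allele carried much of this r.

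Most deletions were flanked by microhomology, here the number of bases a deletion can be moved along the reference without changing the product. Microhomology of 2 bp or more was found for 198 of 366 deletions in replicate 1 (54.1%, 48.98% to 59.1%) and 336 of 605 in replicate 2 (55.5%, 51.6% to 59.4%). These counts include the 3-bp allele, with its tract of 4 bp, on 34 and 74 molecules. Across all possible deletions of the same sizes touching the cut, each distinct product counted once, the share was 18.9% and 21.1%. At 10 to 49 bp it was 63.7% (53.5% to 72.9%) and 56.6% (48.6% to 64.2%) against 13.3% and 11.6% of possible deletions. At 100 bp to under 500 bp it was 72.6% (62.3% to 81.0%) and 72.9% (64.2% to 80.1%) against 8.15% and 8.14%. Deletions of 500 bp or longer had it in 50% (35.2% to 64.8%) and 36.6% (23.6% to 51.9%), against 6.87% and 7.16%. The observed shares count molecules. With each allele counted once per replicate, they were 51.5% and 50.5% over all sizes, 44.2% and 39.5% at 10 to 49 bp, 71.01% and 71.7% at 100 bp to under 500 bp, and 45.5% and 36.8% at 500 bp or longer. No test was made between these classes or against the possible deletions, since clonal descent ties molecules together.

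**Figure D5:**
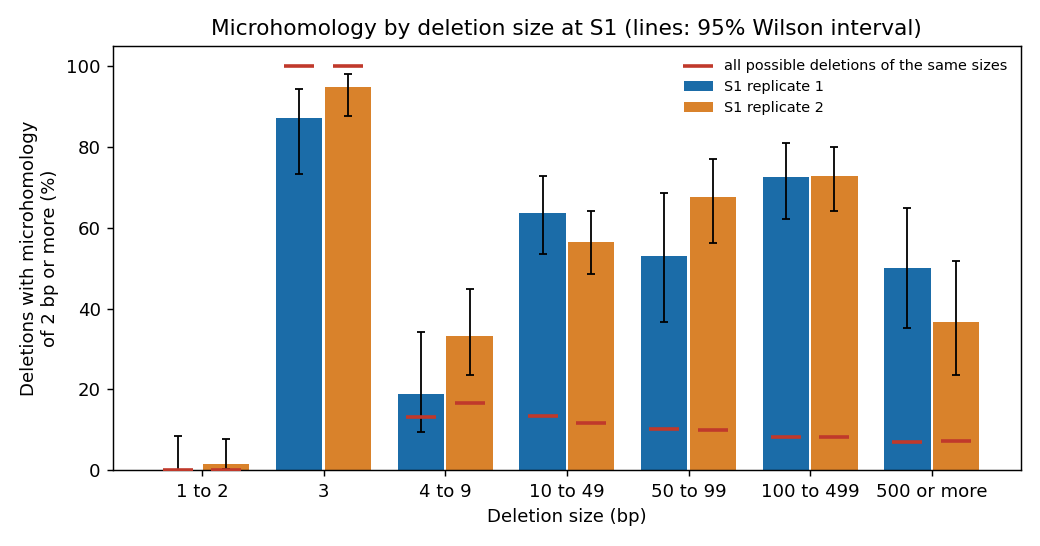
Percentage of deletions with microhomology of 2 bp or more (vertical axis) by deletion size (bp, horizontal axis) in S1 replicates 1 and 2; black lines are 95% Wilson intervals and red marks the share among all possible deletions of the same sizes that touch the cut. The share was 72.6% and 72.9% at 100 bp to under 500 bp, against 50% and 36.6% at 500 bp or longer.

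Small deletions were mixed in this respect. At 1 to 2 bp, microhomology of at least 1 bp was present in 16 of 41 and 21 of 70 molecules, against 50% of possible deletions. At 3 bp, all possible deletions touching the cut share the tract of 4 bp, and 34 of 39 and 74 of 78 molecules had it, the others lying off the cut. At 4 to 9 bp, 18.9% (9.48% to 34.2%) and 33.3% (23.5% to 44.8%) had 2 bp or more, against 13.2% and 16.7% of possible deletions. The longest tracts belonged to LDs. Of 17 alleles with 5 bp or more, found on 13 and 14 molecules, 16 were LDs, from 65 bp up to 553 bp, and the longest tract, chosen after its value was seen, was CTTGACAT (8 bp) at a 491-bp deletion on 1 molecule of replicate 1.

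Insertions under 20 bp were mainly single bases next to the cut. Replicate 1 had 12 insertions of 1 bp among 18, and replicate 2 had 32 among 35. Of these, 8 of 12 (66.7%, 39.1% to 86.2%) and 23 of 32 (71.9%, 54.6% to 84.4%) were a C that copied the first base on the PAM-distal side of the cut. The allele is shown against the unedited sequence of chr14:21092386-21092415, with the added base in capitals, because it is the only insertion with more than 5 molecules.
Unedited: atggggaatcctcttcttgacatctctgct
1-bp insertion: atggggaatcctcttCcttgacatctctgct
It made up 1.92% (0.975% to 3.74%) of listed indels in replicate 1 and 3.34% (2.23% to 4.96%) in replicate 2 (adjusted p = 0.567, Fisher's exact test). The other frequent short insertions were a T at -1 (1 and 4 molecules), an A at 1 (0 and 3), a T at 2 (2 and 1) and TGACA at 0 (3 and 0). The bases TGACA also occur once in the 30 bp beyond the cut, from 3 to 7.

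No listed LI type recurred between replicates. LIs counted as 1 type only if position, length and inserted sequence were identical. The 32 and 49 listed LIs formed 79 types, of which 0 were in both replicates. Parts of the inserts did recur, since 26 of 32 and 41 of 49 LIs shared a stretch of 20 bp with an LI of the other replicate. Only 2 types had more than 1 molecule, a 36-bp LI at -1 and a 121-bp LI at 1, each on 2 molecules of replicate 2. By inserted sequence alone, 6 of the 81 listed LIs had a sequence seen more than once. Lengths ran from 28 to 1247 bp (median 214.5 bp) in replicate 1 and from 36 to 1318 bp (median 167 bp) in replicate 2. Among LIs kept in the 30 bp on either side of the cut, 18 of 32 and 24 of 49 sat at position 1 and 29 and 42 within 3 bp. The longest of each replicate was at position 1. The further LIs reached by the naming rule were single molecules of 28, 36 and 38 bp in replicate 1. These values hold for the listed LIs only.

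A match to the mouse genome (at least 90% identity over at least 80% of the insert, blastn) was found for 4 of 32 LIs (12.5%, 4.97% to 28.1%) in replicate 1 and 5 of 49 (10.2%, 4.44% to 21.8%) in replicate 2. Of these 9, 7 came from within 1000 bp of the cut. The 121-bp LI on 2 molecules equalled chr14:21091648-21091768, which ends 632 bp from the cut on the PAM side. A 476-bp LI of replicate 1 matched sequence that ends 12 bp from the cut on the PAM side, a 171-bp LI of replicate 1 matched sequence that starts 24 bp from it on the PAM-distal side, and the 36-bp LI on 2 molecules of replicate 2 matched sequence 10 bp from it. The 2 distant donors lay on chromosomes 1 and 2. Of the remaining LIs, 26 and 42 shared at least 1 stretch of 20 bp with LIs listed at other sites, and 38 of these 68 did so with all 3 of them, whereas 0 of the 9 mouse matches did. The vector sequence was not used here, so the shared stretches are not named.

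Inversions were seen on 2 molecules of replicate 1. One of 338 bp (-336 to 1) was the molecule's only listed event, and one of 354 bp (18 to 371) lay on a molecule that also carried a deletion.

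The size profile moved with the name of the UMI, which carried a 5′-end mark on some molecules and none on others. What the mark means was not given in the sources used here. Among molecules without the mark, LDs were 104 of 219 (47.5%, 41.0% to 54.1%) in replicate 1 and 159 of 375 (42.4%, 37.5% to 47.5%) in replicate 2. Among those with the mark, LDs were 54 of 198 (27.3%, 21.5% to 33.9%) and 74 of 314 (23.6%, 19.2% to 28.6%). Deletions of 1 to 9 bp ran the other way, with 19.6% and 23.7% against 37.4% and 41.7%. The number that leads the UMI name differed too, with medians of 114 and 140 without the mark and 9 and 8 with it. The part of the mark in the size profile was not tested. UMIs hardly linked molecules: 2 occurred in both replicates, on different indels. Of 15 pairs in replicate 1 and 18 in replicate 2 with UMIs within 1 base, 3 and 0 had the same indel.

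Set against S7, S18 and S28, S1 was called different in none of 8 measures (exact permutation test, two-sided, over the 28 ways of choosing 2 of 8 samples, smallest possible p = 0.0357; adjusted over the 8 measures). With 8 measures to adjust for, a single measure with fully separated groups could not have passed, so the lack of a call says little. The values of S1 fell within the range of the other 6 samples for 7 of them. Those 6 samples are 2 each from S7, S18 and S28, and the permutation treats all samples as exchangeable. The SDs given for elsewhere therefore mix spread between sites with spread between replicates. The median deletion was 36 bp and 32 bp at S1, against 113 bp and 120 bp at S7, 13.5 bp and 19 bp at S18 and 25 bp and 22 bp at S28 (p = 1.00, exact). Deletions of 1 to 9 bp made up 34.2% ± 3.11 (SD, n = 2) of deletions at S1 and 29.0% ± 20.1 (SD, n = 6) elsewhere, and deletions of 10 to 49 bp 24.99% ± 0.184 and 25.9% ± 3.48. Of LDs, 25.3% and 17.6% at S1 were 500 bp or longer, against 12.3% to 35.5% elsewhere. The most frequent type held 8.15% and 10.7% of indels at S1, against 3.75% to 11.98% elsewhere, and 72.6 and 68.9 types were expected among 94 molecules, against 59.0 to 80.7. The median insertion came nearest to a difference, at 66 bp and 44.5 bp at S1, against 1 bp in both S18 samples and 24 bp to 49 bp in the 4 samples of S7 and S28 (exact permutation p = 0.107, adjusted p = 0.857), and it rests on the listed insertions. The share of deletions spanning the cut was 70.4% ± 0.483 (SD, n = 2) at S1 and 77.3% ± 12.8 (SD, n = 6) elsewhere, where S7 alone exceeded 93%. Each site had its own virus and primers, which cannot be told apart from the site.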

How the data were processed

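Per the labels and methods, UMI-tagged amplicons were read on Nanopore, reads were kept that held both primers and had a read quality of 10 or more, and the authors called variants with VAULT (version and genome build of this step not given in the sources used here). Indels overlapping 30 bp on either side of the cut were kept and indels seen in unedited controls removed, which lowers any true edit resembling background. The deposited statistics give counts of UMI types, indels, deletions, insertions, LDs and LIs, and LD and LI fractions that the authors took over indels. The deposited indel table gives other values per UMI (position, length and sequence). It held 55 empty lines. Rows repeating a UMI were reduced to the first listed indel. Of per-sample columns, 0 were unused.

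Sequences were placed on GRCm38 by exact match (annotation GENCODE), LIs by blastn 2.17.0 (word size 20, e-value 0.001). Tests were run in Python 3.11.15 with SciPy 1.17.1 and tested on simulated data. Types with 5 or more molecules were compared, at an adjusted p of 0.05. Named were the 5 most frequent types of each class (short and large deletions and insertions; ties by shorter size), the longest deletion and insertion of each replicate and any type differing between replicates. Members and lists were chosen with earlier results of these data known. Alternatives included other type definitions, types counted once, other denominators and thresholds, mid-p, left-out samples and a replicate block.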

Additional observations from a re-analysis of the deposited data

How the results depend on the processing

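Between the replicates, all 13 alternatives for size classes, direction and types gave 0 calls, as reported. How often indels recurred depended on what counts as the same type. The mean share of molecules in types seen in both replicates was 47.6%. It became 59.2% with positions and sizes within 2 bp joined and 68.7% within 5 bp. Types of 2 or more molecules alone gave 67.1%. Molecules without the 5′-end mark in the UMI name alone gave 31.7% (chosen after seeing the data). The mean share in the most frequent type, 9.45%, became 19.6%, 29.5%, 15.6% and 6.38% in the same order and lay between 8.15% and 10.7% with either replicate alone. For each joined setting this follows from its construction. For molecules without the mark the cause was not tested. Leftmost positions, collapsed UMIs and the last listed event (added later) moved neither.

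Against the other sites no measure passed under any alternative (adjusted p from 0.643 to 1), which is no sign of stability, since with so few arrangements a single measure could not have passed after adjustment. Small differences changed sign. With 1 sample left out in turn, the difference in median deletion size (log2, -0.05) ran from -0.33 to 0.30 (above 0 without S1 replicate 2 at 0.03 or without S7 replicate 1 or 2), in the share of 1 to 9 bp (5.18 percentage points) from -0.172 (without S7 replicate 1) to 9.07, in LDs of 500 bp or longer (-2.56) from -6.42 to 1.297 (without S1 replicate 2) and in expected types (0.580) from -1.67 to 8.40. The last was below 0 without S1 replicate 1 (-1.28) or either S18 replicate, and 8.40 came without S7 replicate 1, the library with the fewest listed molecules, whose absence raises the number drawn. With each type once per sample, median deletion size differed by 0.18, the share of 1 to 9 bp by -1.97 and the spanning share by 3.26, against -6.92 with every molecule. Among molecules without the 5′-end mark, the share of 10 to 49 bp differed by 0.780, against -0.876, and the most frequent type by -0.102, against 1.86. There, LDs of 500 bp or longer differed by -9.02, against -2.56. The cause was not tested. Over the 8 measures, deviations of same-numbered samples correlated below 0 for 5 of 6 pairs of sites (lowest -0.43) and at 0.54 for S7 with S28, so the numbers were not taken to pair samples. A replicate block left the 8 differences as they were (2.39 on the log2 scale for median insertion size) with no call, since its 16 arrangements allow no exact p below 0.0625.

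Depth limits what can be said of single large types, since no LD type had more than 4 molecules in a replicate and no listed LI type more than 2.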
